A study of Mus musculus with 3 samples.

Results

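The genes of the platelet-derived growth factor (PDGF) system, 4 ligands and 2 receptors, were examined in RNA from 3 populations of cells sorted from a differentiated mouse embryonic stem cell culture. The members were taken by symbol from the deposited gene table, and all 6 (Pdgfa, Pdgfb, Pdgfc, Pdgfd, Pdgfra and Pdgfrb) were found among its 39179 genes. Their line reported Cntn2, the contactin 2 gene used to mark Purkinje fibres of the heart, with eGFP, and carried mCherry on a lentivirus under the αMHC promoter, which is active in heart muscle. All cells came from this 1 line, were treated with sodium nitroprusside (which releases nitric oxide) on day 4 of differentiation and were sorted on day 25. NEG denotes cells negative for both reporters, MHC cells positive for mCherry, and GFP cells positive for eGFP with dim mCherry. With a single library for each population, differences were not checked in replicates and p-values are not given. The reads recovered from the deposited values totalled 47289405 in NEG, 52826956 in MHC and 52109065 in GFP. All values are normalised read counts, that is reads divided by 1 size factor per library, and the 95% intervals cover counting error only. Cntn2 was highest in GFP, at 10045, against 204 in NEG and 228 in MHC. Myh6, the gene of the αMHC protein, was highest in MHC, at 186924, against 3843 in NEG and 4694 in GFP. Its value in GFP was only 1.22-fold above NEG, although GFP cells were labelled as dim for mCherry.

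PDGFs are secreted dimers that activate receptor tyrosine kinases. PDGF-A and PDGF-C act mainly through the alpha receptor (Pdgfra), PDGF-B binds both receptors, and PDGF-D acts mainly through the beta receptor (Pdgfrb). In the developing heart both receptors are found in the epicardium and in cells derived from it. Pdgfra is widely used to mark fibroblasts and mesenchymal progenitors, and Pdgfrb to mark pericytes and vascular smooth muscle, the mural cells of vessels.

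RefSeq promoter windows (build GRCm38.p6, from 250 bases before to 50 after a transcript start) were held for 4 of the 6 members, with no window for Pdgfb and Pdgfrb. They are shown for Pdgfra and Pdgfd, whose levels were higher in GFP, for Pdgfc, whose level was within 2-fold in every pair, and for Pdgfa at the start site whose window also covers the annotated 5′ end of 6330403L08Rik, an overlapping gene on the opposite strand. The windows lie at chr5:75152001-75152300 (+ strand) for Pdgfra, chr9:6168236-6168535 (+ strand) for Pdgfd, chr3:81036166-81036465 (+ strand) for Pdgfc and chr5:138994895-138995194 (− strand) for Pdgfa. Capitals mark matches, on either strand, to TATAAA (as in TATA boxes), to GGGCGG (bound by Sp1), to AGATAA (bound by GATA factors) and to the CArG box (bound by serum response factor). Matches to CANNTG (the E-box) were also searched on both strands and are not in capitals, and no match overlapped another.
Pdgfra: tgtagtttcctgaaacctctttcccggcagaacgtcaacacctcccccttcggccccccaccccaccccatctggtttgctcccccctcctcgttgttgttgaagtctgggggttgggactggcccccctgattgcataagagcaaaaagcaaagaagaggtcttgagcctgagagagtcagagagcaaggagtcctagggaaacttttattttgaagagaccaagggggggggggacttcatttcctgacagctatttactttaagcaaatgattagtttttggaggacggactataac
Pdgfd: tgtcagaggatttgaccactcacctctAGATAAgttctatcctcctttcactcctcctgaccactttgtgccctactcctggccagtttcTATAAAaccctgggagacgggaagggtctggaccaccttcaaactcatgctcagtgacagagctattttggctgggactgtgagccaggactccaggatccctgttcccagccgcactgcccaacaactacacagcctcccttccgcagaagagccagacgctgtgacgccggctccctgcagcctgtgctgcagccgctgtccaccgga
Pdgfc: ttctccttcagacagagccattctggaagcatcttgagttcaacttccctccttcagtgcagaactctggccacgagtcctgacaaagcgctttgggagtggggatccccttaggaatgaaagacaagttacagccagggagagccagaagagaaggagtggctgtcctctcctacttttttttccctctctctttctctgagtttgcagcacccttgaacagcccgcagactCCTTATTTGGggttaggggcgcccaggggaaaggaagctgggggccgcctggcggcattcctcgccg
Pdgfa: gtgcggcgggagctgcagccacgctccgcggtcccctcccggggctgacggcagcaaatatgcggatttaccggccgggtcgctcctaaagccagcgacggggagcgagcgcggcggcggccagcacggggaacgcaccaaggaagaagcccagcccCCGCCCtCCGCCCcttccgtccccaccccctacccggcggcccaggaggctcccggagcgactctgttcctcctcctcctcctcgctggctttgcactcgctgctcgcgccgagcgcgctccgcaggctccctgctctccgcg
The last bases of the Pdgfra and Pdgfd windows were not found in a GENCODE transcript of these genes. The Pdgfd window ends before the gene start of the deposited table (chr9:6168612), so its positions rest on the RefSeq start site alone. The Pdgfra and Pdgfd windows had no motif in common. The Pdgfd window held TATAAA starting at position -160 and AGATAA at position -223, counted from the start site, motifs present in 13.6% and 11.2% of the 32851 windows in the RefSeq table. The Pdgfra window held none of these 4 motifs, and it had 2 matches to CANNTG, which 72.3% of all windows hold. The Pdgfc window held a CArG box (CCTTATTTGG) at position -17, present in 1.63% of all windows. The Pdgfa window held GGGCGG on the opposite strand at positions -93 and -86, a motif in 35.7% of all windows. Its G and C content was 73.3%, against 51% to 56.7% in the windows of the other members shown and a median of 52.7% over all windows.

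The 2 receptors differed between GFP and the other populations in opposite directions. Pdgfra (ENSMUSG00000029231, chr5:75152291-75198204, mm10, a protein-coding gene) stood at 9525 in NEG, 11080.2 in MHC and 35383 in GFP. GFP was the high library, 3.71-fold above NEG (95% interval 3.63 to 3.80) and 3.19-fold above MHC (3.13 to 3.26). Pdgfrb (ENSMUSG00000024620, chr18:61045150-61085061, also protein-coding) had a value of 7708 in NEG, 7037 in MHC and 2376 in GFP. Here GFP was the low library, 3.24-fold below NEG (95% interval 3.10 to 3.40) and 2.96-fold below MHC (2.83 to 3.10). MHC and NEG lay close together for both receptors, 1.16-fold apart for Pdgfra (95% interval 1.13 to 1.2) and 1.10-fold for Pdgfrb (1.06 to 1.13). In bulk RNA from sorted cells, fewer cells that express a gene and less RNA per cell cannot be told apart.

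**Figure D1:**
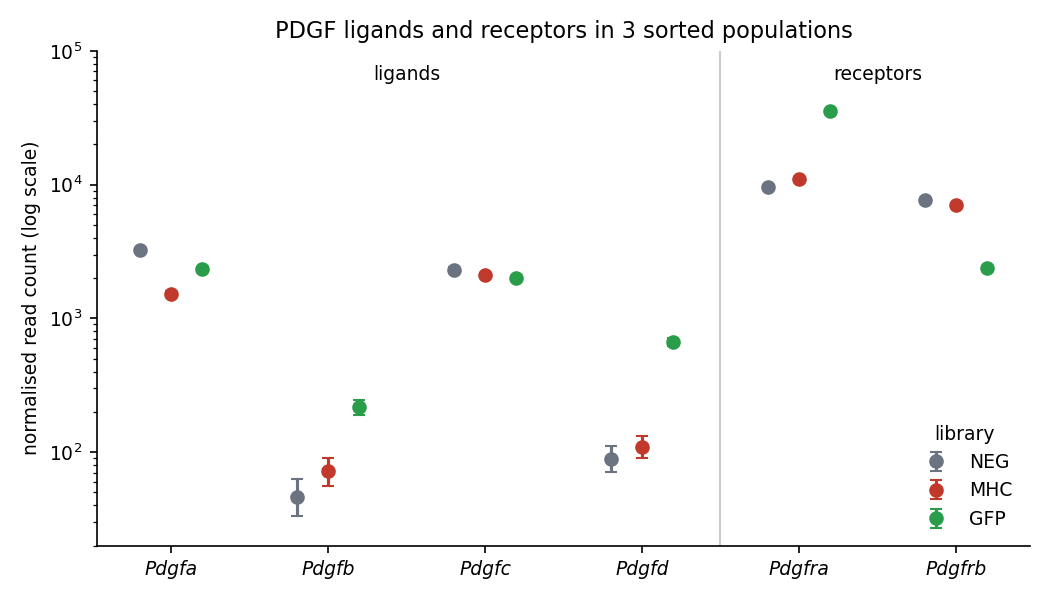
Normalised read counts (log scale) of the 4 PDGF ligand genes and 2 receptor genes in the NEG, MHC and GFP libraries, 1 point per library; bars are 95% Poisson intervals and cover counting error only. Pdgfra is highest in GFP at 35383 and Pdgfrb lowest there at 2376, while Pdgfb and Pdgfd lie far below the other genes and are highest in GFP.

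The balance of the 2 receptors within a library does not depend on how libraries are scaled to each other. Pdgfra had 8432 reads in NEG, 10939 in MHC and 38710 in GFP, and Pdgfrb had 6823, 6947 and 2599. Per kb of merged exons, the ratio of Pdgfra to Pdgfrb was 0.675 in NEG (95% interval 0.654 to 0.697), 0.861 in MHC (0.835 to 0.887) and 8.14 in GFP (7.82 to 8.47). The GFP ratio was 12.1 times that of NEG (95% interval 11.5 to 12.7) and 9.46 times that of MHC (9.0 to 9.95), whatever the gene lengths. The ratio in MHC was 1.27 times that in NEG (95% interval 1.22 to 1.33). Which receptor was the higher one in MHC depended on the length used, since the ratio was 1.25 per kb of the longest transcript and 1.37 per kb of gene span. In NEG the corresponding ratios were 0.981 and 1.07, so the receptors cannot be ordered there. In GFP, Pdgfra was the higher receptor at every length, with ratios of 11.8 and 12.9.

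**Figure D2:**
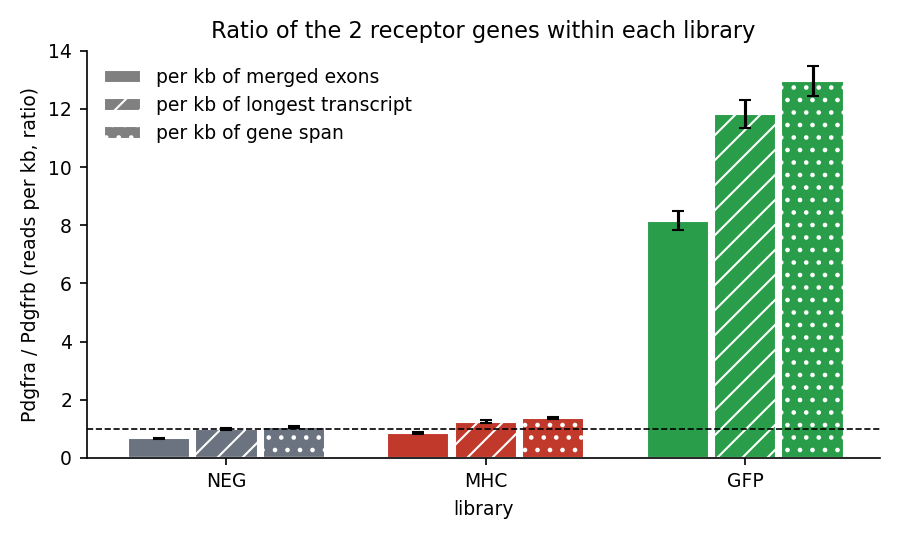
Ratio of Pdgfra to Pdgfrb within each library, in reads per kb of merged exons, of the longest transcript or of the gene span; error bars are exact 95% binomial intervals and the dashed line marks equal levels. The ratio lies between 0.675 and 1.37 in NEG and MHC and between 8.14 and 12.9 in GFP.

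The ligands associated with the beta receptor, Pdgfb and Pdgfd, were low in NEG and MHC and higher in GFP. Pdgfd (ENSMUSG00000032006, chr9:6168612-6378843), the gene of a latent ligand that a protease must cut, had a value of 89.2 in NEG, 109 in MHC and 664 in GFP. It was 7.44-fold higher in GFP than in NEG (95% interval 5.89 to 9.50) and 6.07-fold higher than in MHC (4.95 to 7.50). Its NEG and MHC values, from 79 and 108 reads, differed 1.23-fold with an interval of 0.909 to 1.66. Pdgfb (ENSMUSG00000000489, chr15:79995900-80014808), whose product from endothelium recruits mural cells to vessels, had a value of 46.3 in NEG, 71.9 in MHC and 217 in GFP. GFP was again the high library, 4.68-fold above NEG (95% interval 3.35 to 6.69) and 3.01-fold above MHC (2.3 to 3.98). MHC lay 1.55-fold above NEG, on 71 and 41 reads, with an interval of 1.04 to 2.34. Pdgfb and Pdgfd were thus higher in the same library in which Pdgfrb was lower.

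The ligands of the alpha receptor, Pdgfa and Pdgfc, were present at higher values in all 3 libraries and differed less. Pdgfa (ENSMUSG00000025856, chr5:138976014-138997370) had a value of 3224 in NEG, 1528 in MHC and 2346 in GFP. NEG was the high library and MHC the low one, 2.11-fold apart (95% interval 1.98 to 2.25), an interval that reaches below 2-fold. GFP lay between them, 1.54-fold above MHC (95% interval 1.44 to 1.64) and 1.37-fold below NEG (1.30 to 1.45). Pdgfa overlaps 6330403L08Rik, and the table does not separate their reads. The partner's reads came to 25.6% of those of Pdgfa over the 3 libraries, so Pdgfa is uncertain. With every read of the partner taken off, Pdgfa was at 2564 in NEG, 1157 in MHC and 1592 in GFP, in the same order. Pdgfc (ENSMUSG00000028019, chr3:81036416-81214040), the other latent ligand, had a value of 2317 in NEG, 2105 in MHC and 1998 in GFP. It was the most even member, with its largest difference 1.16-fold between NEG and GFP (95% interval 1.09 to 1.23). Its difference between GFP and MHC (log2 ratio −0.07) turned to 0.09 when libraries were scaled by their total reads, so no direction is given for it.

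Levels of different genes were compared per kb of merged exons. In GFP the order was Pdgfra at 3530 (normalised reads per kb), Pdgfa at 752, Pdgfrb at 434, Pdgfc at 393, Pdgfd at 210.4 and Pdgfb at 52.1. In MHC it was Pdgfrb at 1285, Pdgfra at 1105, Pdgfa at 490.1, Pdgfc at 414, Pdgfd at 34.7 and Pdgfb at 17.3. In NEG it was Pdgfrb at 1407, Pdgfa at 1034, Pdgfra at 950.2, Pdgfc at 455, Pdgfd at 28.3 and Pdgfb at 11.1. With 1 library per population there is no spread between samples to set against neighbours in these orders. Per kb of the longest transcript Pdgfc passed Pdgfrb in GFP, Pdgfra passed Pdgfrb in MHC, and Pdgfa led in NEG at 1565, ahead of Pdgfrb at 1421 and Pdgfra at 1394. Pdgfd and Pdgfb were the lowest members in all 3 libraries on these scales. Per kb of gene span Pdgfra led in all 3 libraries, and Pdgfb, at 11.5 in GFP, stood above Pdgfc at 11.2 there. Pdgfd was then the lowest member throughout, with Pdgfb next to it in NEG and MHC.

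Pdgfa and Pdgfc together made up most of the ligand RNA in each library. Per kb of merged exons, Pdgfa held 67.6% of the summed ligand level in NEG, 51.3% in MHC and 53.5% in GFP, and Pdgfc 29.8%, 43.3% and 27.9%. The share of Pdgfd was 1.85% in NEG, 3.63% in MHC and 14.9% in GFP, and that of Pdgfb 0.728%, 1.81% and 3.70%. GFP was therefore the library with the largest shares of Pdgfb and Pdgfd. Per kb of gene span, which weighs down the long genes Pdgfc (178 kb) and Pdgfd (210.2 kb), the Pdgfd share was 0.254%, 0.593% and 2.33%, with GFP still the highest. On that scale Pdgfa held 90.5% in NEG, 81.6% in MHC and 80.9% in GFP, and Pdgfc 7.82%, 13.5% and 8.29%. The split between Pdgfa and Pdgfc therefore depended on the length used. The Pdgfa shares are also uncertain through its overlap with 6330403L08Rik.

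Genes were counted as differing between 2 libraries where the log2(value + 1) ratio reached 2-fold and the higher value was at least 20. This rule is one of size, without a test. Between GFP and MHC, 4 of the 6 members differed, while 31.9% of 20879 genes did so. Pdgfra, Pdgfb and Pdgfd were higher in GFP (15.6% of genes) and Pdgfrb was lower (16.4%). Between GFP and NEG the same 4 members differed in the same directions, against a background of 29.1% of 20814 genes (14.1% higher and 15.0% lower in GFP). These 2 comparisons share the GFP library, so the second is no independent repeat of the first. The log2 ratios against MHC and NEG were 1.68 and 1.89 for Pdgfra, 1.58 and 2.20 for Pdgfb, 2.59 and 2.88 for Pdgfd, and −1.57 and −1.70 for Pdgfrb. Between MHC and NEG 1 of the 6 members differed, Pdgfa, lower in MHC at −1.08, against 10.6% of 20572 genes (5.21% lower and 5.35% higher in MHC). That difference is near the 2-fold limit and rests on a gene with overlapping reads. The median log2 ratio of the 6 members was 1.10 for GFP against MHC, 0.84 for GFP against NEG and 0.04 for MHC against NEG. Over the 22235 genes with a mean value of 10 or more, it was −0.00128, 0.00761 and −0.0134.

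**Figure D3:**
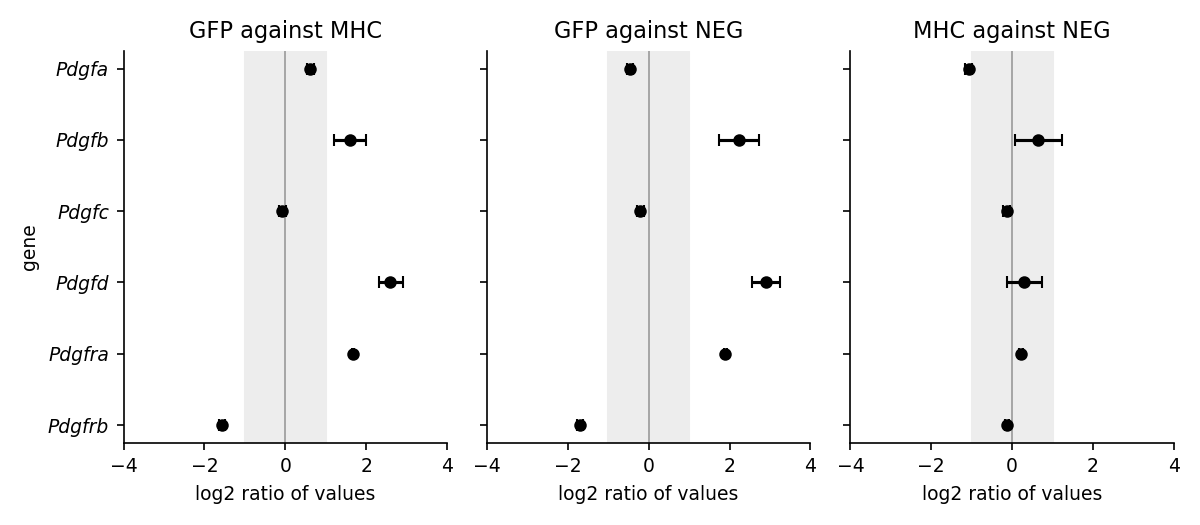
Log2 ratios of the values of the 6 PDGF genes in each pair of libraries, with exact 95% binomial intervals for counting error; the grey band marks differences under 2-fold. Pdgfb, Pdgfd and Pdgfra lie right of the band and Pdgfrb left of it in both pairs with GFP, and between MHC and NEG the point of Pdgfa alone lies past the edge of the band.

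The remaining genes of the pathway were taken from 5 lists with 48 genes, of which 47 had a mean value of 10 or more. Between GFP and MHC 10 of these 47 were higher in GFP and 4 lower, with a median log2 ratio of 0.31, where 15.6% of all genes were higher and 16.4% lower. Between GFP and NEG 10 were higher and 4 lower (median 0.26), where 14.1% of all genes were higher and 15.0% lower. Between MHC and NEG 0 were higher and 3 lower in MHC (median 0.01), where 5.35% of all genes were higher and 5.21% lower. Counts of the single lists below are to be read against these shares, and none is taken as particular to a list. The lists were chosen with earlier results of these data known, so the shares serve for scale only.

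The proteases that release active PDGFs held some of the larger differences. Plat, the gene of tissue plasminogen activator, which cuts latent PDGF-C, had a value of 583 in NEG, 1080 in MHC and 6370.1 in GFP. It was 10.9-fold higher in GFP than in NEG (95% interval 9.99 to 12.0) and 5.90-fold higher than in MHC (5.53 to 6.30). Plau, the gene of urokinase, which cuts PDGF-D, had a value of 799 in NEG, 768 in MHC and 14214 in GFP. GFP stood 17.8-fold above NEG (95% interval 16.5 to 19.2) and 18.5-fold above MHC (17.2 to 19.9). St14, the gene of matriptase, another protease of PDGF-D, was low, at 104 in NEG, 46.6 in MHC and 175 in GFP. Among the proprotein convertases that process PDGF-A and PDGF-B, Furin and Pcsk5 lay within 2-fold in all 3 pairs. Pcsk6 was highest in NEG at 12623, against 3197 in MHC and 2355 in GFP. Of the 7 proteases, 3 were higher in GFP than in MHC and 0 lower, against 15.6% and 16.4% of all genes. In GFP against NEG 2 were higher and 1 lower, against 14.1% and 15.0%.

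Genes of proteins that bind the receptors or ligands went both ways. Slc9a3r1, the gene of a scaffold protein that binds the PDGF receptors at the membrane, had a value of 957 in NEG, 759 in MHC and 22745 in GFP, 23.8-fold above NEG and 30.0-fold above MHC. Pdgfrl, the gene of a secreted protein similar to the ligand-binding part of the receptors, was at 2503 in NEG, 3250.4 in MHC and 79.5 in GFP, 31.5-fold below NEG and 40.9-fold below MHC. Nrp1, the gene of neuropilin 1, a co-receptor for several growth factors, was at 6396 in NEG, 9427 in MHC and 934 in GFP. The endocytic receptor gene Lrp1 lay within 2-fold in all pairs, at 41512 in NEG, 37808 in MHC and 29723 in GFP. GFP was thus the low library for Pdgfrl and Nrp1, as for Pdgfrb, and the high one for Slc9a3r1.

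The adaptors and effectors that carry the signal from the activated receptors did not reach 2-fold in any pair for any of 18 genes. Over all genes, 31.9% differed between GFP and MHC, 29.1% between GFP and NEG and 10.6% between MHC and NEG. The list's median log2 ratio was 0.24 for GFP against MHC, 0.29 for GFP against NEG and 0.01 for MHC against NEG. Shc1, an adaptor gene, was at 8117 in NEG, 6486 in MHC and 12062 in GFP, and Ptpn11, which encodes the phosphatase SHP2, at 4632, 4841 and 5965. Among 11 genes of phosphatases, ubiquitin ligases and feedback inhibitors, 4 (Dusp6, Spry2, Spry4 and Cbl) were higher in GFP than in both other libraries. The shares of all genes higher in GFP were 15.6% against MHC and 14.1% against NEG. Cbl, a ubiquitin ligase gene named after its values had been seen, stood at 312 in NEG, 391 in MHC and 803 in GFP. Dusp6, the gene of a phosphatase that inactivates ERK, was at 652 in NEG, 1032 in MHC and 5189 in GFP, and the Sprouty gene Spry4 at 647, 1250 and 4501. Spry2 was at 1104, 1282 and 3723. As background, these inhibitors respond to ERK signalling from many receptors. Cblb, a ubiquitin ligase gene, was 2.92-fold lower in GFP than in MHC (95% interval 2.71 to 3.15) and within 2-fold of NEG.

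Of 6 measured genes of the related class III receptor kinases and their ligands, 2 were higher and 1 lower in GFP than in MHC (15.6% and 16.4% of all genes), and 3 higher and 1 lower than in NEG (14.1% and 15.0%). Both genes higher than in MHC, Csf1r and Il34, overlap other genes and are uncertain. Kit, a stem cell factor receptor gene 377 kb from Pdgfra on chromosome 5, was at 337 in NEG, 121 in MHC and 25.6 in GFP, opposite in order to Pdgfra. Csf1r, the macrophage colony-stimulating factor receptor gene 20.5 kb from Pdgfrb on chromosome 18, was at 334 in NEG, 336 in MHC and 963 in GFP, opposite in direction to Pdgfrb. Csf1r overlaps Hmgxb3, which had 273% of its reads. Il34, the gene of a second ligand of that receptor, was at 154 in NEG, 231 in MHC and 469.8 in GFP, and its partner had 25.1% of its reads. Kitl, the gene of the ligand of Kit, was highest in GFP at 3371, against 1981 in MHC and 993 in NEG.

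**Figure D4:**
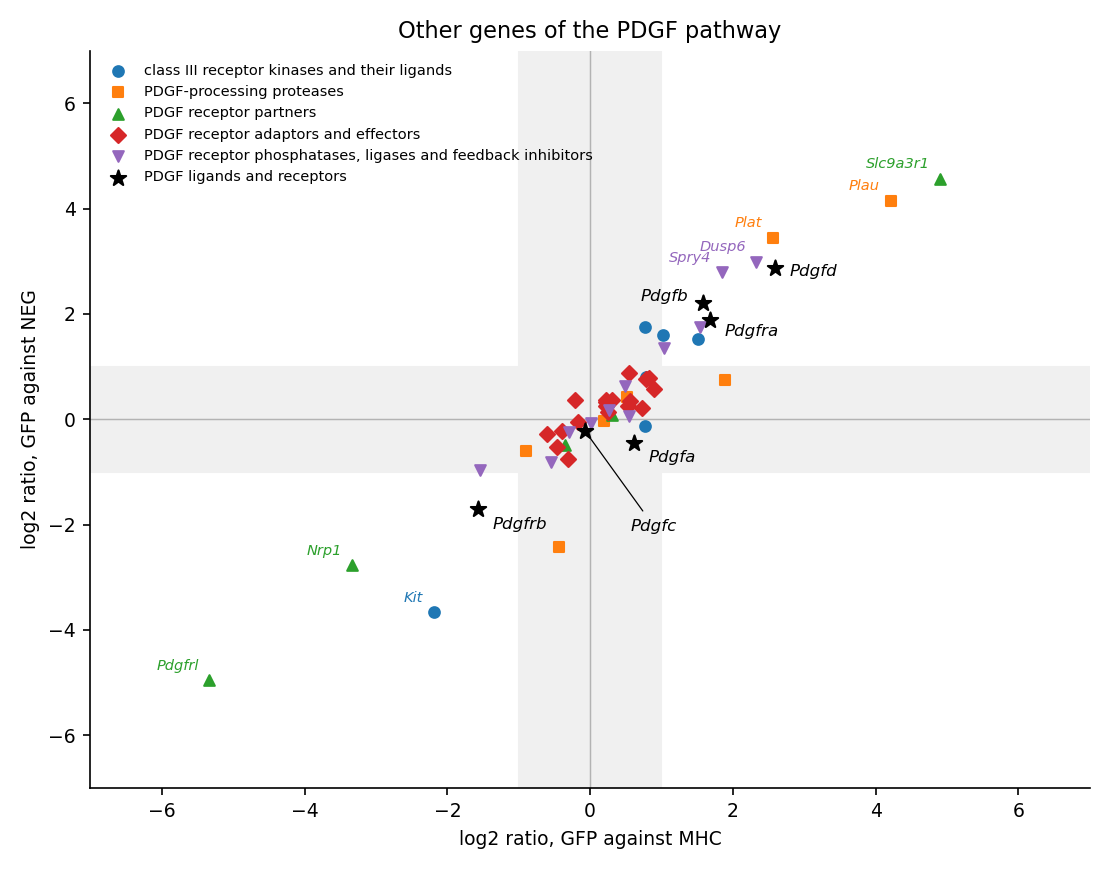
Log2 ratios of the measured genes of 5 PDGF pathway lists, GFP against MHC on the horizontal axis and GFP against NEG on the vertical axis, with the 6 PDGF genes as stars; grey bands mark differences under 2-fold, and both axes share the GFP library. Plau, Plat and Slc9a3r1 lie at the upper right and Pdgfrl and Nrp1 at the lower left, while all 18 adaptor genes lie within the bands.

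Epicardial and mesothelial markers differed in the direction of Pdgfra and most mural cell markers in that of Pdgfrb. More fibroblast markers went against Pdgfra than with it. The part of these markers in the PDGF differences was not tested. Over all genes, 15.6% were higher and 16.4% lower in GFP than in MHC, and 14.1% and 15.0% than in NEG. The marker counts stand beside these shares for scale only, since the lists were chosen with earlier results of these data known. Epicardial and mesothelial markers were higher in GFP for 10 of 10 genes against both other libraries, and their summed value was 7276 in NEG, 7051 in MHC and 179476 in GFP. Upk3b, a uroplakin gene of mesothelium, was at 1368 in NEG, 995 in MHC and 54258 in GFP. Pericyte markers were lower in GFP for 7 of 9 measured genes against both others, with summed values of 54668 in NEG, 24078 in MHC and 6471 in GFP. Most of the NEG and MHC sums came from Cspg4 and from Ndufa4l2, at 17103 in NEG, 10778 in MHC and 348 in GFP. Rgs5 was at 410.1, 135 and 5.48, and Cspg4, the gene of the pericyte proteoglycan NG2 that cartilage and glial precursors also express, at 30238, 5968 and 388. Mcam was the exception among the pericyte markers, at 760.3 in NEG, 526 in MHC and 3463 in GFP, and Anpep lay within 2-fold. Smooth muscle markers were lower in GFP for 7 of 8 genes against MHC and 6 of 8 against NEG, with summed values of 68013 in NEG, 77180.3 in MHC and 18416 in GFP.

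Fibroblast markers were split, with more of them lower than higher in GFP. Between GFP and MHC 3 of 10 were higher in GFP and 6 lower (median log2 ratio −1.56), and between GFP and NEG 3 were higher and 5 lower (median −1.43). The shares over all genes were 15.6% higher and 16.4% lower against MHC, and 14.1% and 15.0% against NEG. Thy1 was at 2094 in NEG, 3303 in MHC and 23864 in GFP and the proteoglycan gene Dcn at 62072, 67849 and 144191, both highest in GFP like Pdgfra. Postn was at 36829, 42621 and 1238 and was lowest in GFP, like Pdgfrb. The summed fibroblast marker value was 5274969 in NEG, 5251044 in MHC and 1359315 in GFP, most of it from the type I collagen genes. Osteoblast and cartilage markers were lower in GFP for 7 of 7 genes against both others, with summed values of 731971 in NEG, 159626 in MHC and 7779 in GFP.

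Markers of other cell types known for these genes were split between the libraries. The counts of these small lists stand beside 15.6% of all genes higher and 16.4% lower in GFP than in MHC, and 14.1% and 15.0% than in NEG. Of 5 measured endothelial markers, 2 were higher and 2 lower in GFP than in MHC, and 1 was higher and 3 lower than in NEG. Endothelium makes PDGF-B, and its markers Esam (53.1 in NEG, 53.7 in MHC and 145 in GFP) and Tek (277, 225 and 504) were highest in GFP, as was Pdgfb. Tek was only 1.82-fold higher in GFP than in NEG. The endothelial receptor gene Flt1 (1174 in NEG, 2370.2 in MHC and 40.2 in GFP) and the adhesion gene Pecam1 (33.9, 34.4 and 15.5) were lowest in GFP. Kdr was highest in NEG, at 195, against 59.8 in MHC and 84.1 in GFP. The listed endothelial markers Cdh5, Tie1 and Emcn were too low to count as measured, at 5.48, 4.57 and 4.57 in GFP. An endothelial source of Pdgfb was not tested. Of 4 measured megakaryocyte and blood markers, 2 were higher and 2 lower in GFP than in each other library. The macrophage gene Cd68 was at 252 in NEG, 503 in MHC and 1220.3 in GFP, and the megakaryocyte gene Itga2b, of a lineage that also makes PDGF-B, at 194, 212 and 63.1. The other 2 of these, Csf1r (higher in GFP) and Gp1bb (lower), overlap other genes and are uncertain. Of 4 measured endoderm markers, a tissue in which Pdgfra is also expressed, 1 was higher and 2 lower in GFP than in each other library. The 1 higher gene was Dab2, an endocytic adaptor gene not restricted to endoderm, at 5783 in NEG, 5592 in MHC and 16281 in GFP, in the direction of Pdgfra. Foxa2 was at 150.2, 53.7 and 3.66 and Lama1 at 682, 426 and 163, both lowest in GFP, and Sox17 was listed at 0 in NEG with 1 read in MHC and 3 in GFP. Of the oligodendrocyte precursor markers, a cell type defined by Pdgfra, only Cspg4 was measured, and Nkx2-2 had 0 reads in GFP and MHC, as had Olig1 and Sox10 in MHC. Cardiomyocyte markers summed to 7790.04 in NEG, 228952 in MHC and 10301 in GFP. Most of the MHC sum was Myh6 (186924), the gene whose promoter drove the mCherry used for sorting. Pdgfra and Pdgfrb values of MHC and NEG were 1.16-fold and 1.10-fold apart. A link between heart muscle RNA and the receptor levels was not tested.

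**Figure D5:**
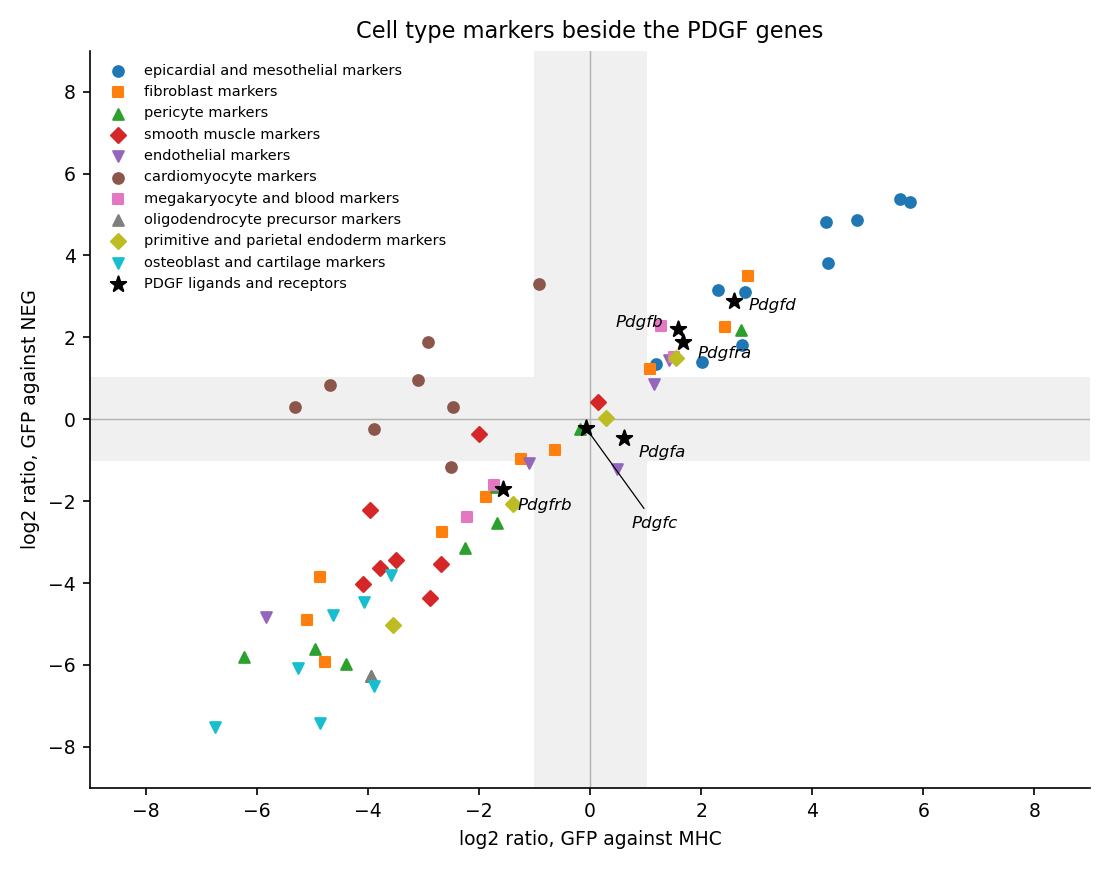
Log2 ratios of the measured cell type markers, GFP against MHC on the horizontal axis and GFP against NEG on the vertical axis, with the 6 PDGF genes as stars; grey bands mark differences under 2-fold, and both axes share the GFP library. Pdgfra, Pdgfb and Pdgfd lie on the side of all 10 epicardial and mesothelial markers, and Pdgfrb lies on the side of 7 of 9 pericyte and most smooth muscle markers. Fibroblast, endothelial, blood and endoderm markers lie on both sides.

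The genes with the profile most like each member were found among 9599 or 9600 protein-coding genes with a mean of 100 or more and no large overlap, by the Euclidean distance between their shares of the summed value over the 3 libraries. Pdgfra had 63.2% of its summed value in GFP, against 19.8% in MHC and 17.0% in NEG. Its nearest genes were Dlg3, Gpam and Galnt9. For Pdgfrb, with 13.9% in GFP, 41.1% in MHC and 45.0% in NEG, they were Fmnl2, Boc and Catsperg1. Pdgfd (77.0% in GFP) was nearest to Maoa, Mark1 and Atp6v0e2, and Pdgfb (64.7% in GFP) to Ano3, Gsdmd and Evpl. Pdgfa (45.4% in NEG) was nearest to Cds1, Celsr2 and Ncald. Over only 3 libraries many genes share a profile. Within a distance of 0.05 lay 118 genes for Pdgfra, 96 for Pdgfrb, 83 for Pdgfd, 75 for Pdgfb, 44 for Pdgfa and 1188 for Pdgfc. With 3 genes named per member, no other PDGF gene was among them, but members could still be alike in profile. Pdgfb had 21.5% of its summed value in MHC and 13.8% in NEG, near the shares of Pdgfra. Pdgfa could not be named for another member because of its overlap.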

How the data were processed

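RNA was measured in 3 sorted populations with 1 library each. Per the labels' protocols, TruSeq libraries were sequenced as single reads of 50 bases. Per the submitters' processing notes, the tools were DESeq2 1.2.10, bedtools 2.17.0, STAR 2.3.0e and FastQC 0.11.2 and the build mm10, without roles. The step that each served is not given in sources used here. Per gene and library, the authors deposited 1 signal value, in which reads are divided by a size factor. One read was worth 1.13 in NEG, 1.01 in MHC and 0.914 in GFP. Values were whole multiples of it, within a tolerance of 0.01, in 100% of cases.

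Of 577 genes of 300 or more reads inside an intron on the opposite strand of a host gene (GENCODE M21), 100% had at least as many reads in the host. Counting was therefore taken to span each gene, introns included, on both strands. Genes overlapped by a gene with 25% or more of their reads are called uncertain where their call is described. Exon lengths came from GENCODE M21, and gene coordinates are those of the table.

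Log2 ratios used a pseudocount of 1, which understates differences of low genes. Folds divide the deposited values directly. Intervals of a ratio are exact 95% binomial (Clopper-Pearson) and those of a level Poisson. No molecular identifiers are named in the labels, so reads may repeat molecules. A count test on the recovered reads has no residual degrees of freedom with single libraries, so none was run and 0 genes are called by one. The members and gene lists were chosen with earlier results of these data known. Named were all members, up to 4 genes of each list by mean, up to 2 in each direction per pair, and the 3 genes nearest in profile, which for Pdgfc are not reported here. Alternatives covered pseudocount, scaling (including TMM in edgeR 4.0.16), minimum value, fold and overlap. Functions were tested on simulated data. Python 3.11.15, numpy 2.4.6, pandas 2.3.3 and scipy 1.17.1 were used. Protein sequences were not used here.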

Additional observations from a re-analysis of the deposited data

How the results depend on the processing

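The 4 members that differed between GFP and each other library kept their direction and stayed past 2-fold under pseudocounts of 0.5 and 10 and all 4 other scalings. The other minimum values could not change these 4 calls. The lowest of the higher values, 217 for Pdgfb in GFP, passes the stricter minimum. Nor could 1.5-fold, which keeps every call made at 2-fold. At 4-fold, 1 member (Pdgfd) was higher in GFP than in MHC and 2 (Pdgfb and Pdgfd) than in NEG. The same limit left 0 members lower in GFP than in MHC or NEG. Of all genes, 1229 of 20879 were higher in GFP than in MHC at 4-fold, and 1126 of 20814 than in NEG. Between MHC and NEG, 0 members were lower in MHC at 4-fold or without overlapped genes, which removes Pdgfa, and 1 (Pdgfb) was higher at 1.5-fold. Scaling by total reads moved the median of all measured genes to 0.165 for GFP against MHC and 0.17 for GFP against NEG on the log2 scale. Under it Pdgfra was at 1.84 and 2.06 and Pdgfrb at −1.40 and −1.53. Taking off the reads of the overlap partner of Pdgfa, an alternative chosen after seeing the data, moved Pdgfa from 0.62 to 0.46 for GFP against MHC, from −0.46 to −0.69 for GFP against NEG, and from −1.08 to −1.15 for MHC against NEG. Per kb of gene span, the ratio of Pdgfra to Pdgfrb came to 12.9 (GFP), 1.37 (MHC) and 1.07 (NEG), and 11.8, 1.25 and 0.981 per kb of the longest transcript.

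Of the 47 measured pathway genes, 17 were higher in GFP than in MHC at 1.5-fold and 4 at 4-fold. Against NEG, 16 were higher and 8 lower at 1.5-fold and 5 higher at 4-fold. Between MHC and NEG, 1 was higher in MHC under TMM factors, 1 under upper quartile scaling and 6 at 1.5-fold, and 0 were lower at 4-fold. Over all genes, 20879 were compared for GFP against MHC, 20814 for GFP against NEG and 20572 for MHC against NEG, at each fold limit. At 2-fold, 3253 were higher and 3415 lower for GFP against MHC, and 2933 and 3122 for GFP against NEG. For MHC against NEG, 1101 were higher and 1071 lower. In the same order these counts were 5398 and 7098, 5148 and 6343, and 4433 and 3936 with no minimum value, 5474 and 5445, 4884 and 4915, and 2503 and 2678 at 1.5-fold, and 1229 and 1576, 1126 and 1474, and 301 and 223 at 4-fold. A minimum of 100 left 2181 lower in GFP than in MHC, 1962 lower in GFP than in NEG, and 626 higher and 597 lower in MHC than in NEG. Without overlapped genes 689 were lower in MHC than in NEG. Depth limits mainly Pdgfb and Pdgfd in NEG and MHC, with 41 to 108 reads. No paired analysis was possible because each population had 1 library.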

Other observations

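The genes beside the receptors on their chromosomes were also read from the table. Of the 4 protein-coding neighbours within 500 kb of Pdgfra, 3 had a mean value of 10 or more, and 0 of them were higher in GFP. Over all genes 15.6% were higher in GFP than in MHC and 14.1% than in NEG, so 0 of 3 is near these shares. Lnx1, whose reads overlap another gene and which is uncertain, was at 2225 in NEG, 2858 in MHC and 2128 in GFP and Chic2 at 994, 1006 and 1515, both within 2-fold. Pdgfrb had 20 such neighbours, 19 of them measured, of which 2 were higher in GFP than in MHC and 5 lower, where 15.6% of all genes were higher and 16.4% lower. One of the 2 is Csf1r, which is uncertain through its overlap. The other, Cd74, the invariant chain gene of antigen presentation 233 kb away, was at 308 in NEG, 81.0 in MHC and 1899 in GFP. Arsi, a sulfatase gene 127 kb away, was at 1366 in NEG, 259 in MHC and 124 in GFP. Around Pdgfb, 24 neighbours were measured, of which 5 were higher in GFP than in MHC and 7 lower, against the same shares. Of the 5, Cbx6, Nptxr and Npcd overlap other genes and are uncertain. Syngr1, a synaptic vesicle gene 76.5 kb away, was at 74.6 in NEG, 143 in MHC and 2196 in GFP, and Mgat3, a glycosyltransferase gene 159 kb away, at 537, 518 and 6568. Among those lower in GFP, Sun2, a nuclear envelope gene 253 kb away, was at 12550.4 in NEG, 19740.5 in MHC and 3108 in GFP, and Kdelr3, an overlapped and uncertain gene 468 kb away, at 9648, 10209 and 738.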
